A study of Homo sapiens with 6 samples.

Results

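The expression of 10 genes of the bone morphogenetic protein (BMP) and transforming growth factor beta (TGF-beta) pathways was followed after FOXA1 knockdown in oral cancer cells. They are ID1, ID2 and ID3, the inhibitory SMADs SMAD6 and SMAD7, the ligands TGFB1 and TGFB2, and the latent TGF-beta binding proteins LTBP1, LTBP2 and LTBP3. The members were the rows of the deposited table that carry these symbols, 10 of 61859 genes, and each symbol stood on a single row. OSC19SSZR, a human oral squamous cell carcinoma line selected for resistance to sulfasalazine, an inhibitor of cystine uptake, was used in every sample. The cells received either a control siRNA (n = 3) or an siRNA that targets the forkhead transcription factor FOXA1 (n = 3), with Lipofectamine RNAiMAX. Total RNA was taken 48 h later and sequenced from NEBNext Ultra libraries. All 6 samples share this single resistant line, so no parental cells enter the comparison. Whether the FOXA1 siRNA was 1 sequence or a pool is not given in the labels. Nor do they tell whether each replicate was its own culture. The p-values therefore reflect the spread among these 6 samples alone, part or all of which may be technical.

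BMP ligands bind paired receptors that phosphorylate SMAD1 and SMAD5, which enter the nucleus with SMAD4 and switch on a small set of immediate targets, among them the ID genes, SMAD6 and SMAD7. ID proteins bind E proteins, a class of helix-loop-helix transcription factors, and keep them off DNA, while SMAD6 and SMAD7 feed back to damp the receptors. TGF-beta, which signals mainly through SMAD2 and SMAD3, is secreted in a latent complex with its own propeptide, and LTBP1 and LTBP3 tie that complex to the extracellular matrix. LTBP2 belongs to the same family but does not bind latent TGF-beta. It sits on elastic microfibrils.

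Promoter sequence is shown for 4 of the genes: ID1 and LTBP2 because they had the largest rise and the largest fall among the 8 genes tested below. ID3 and TGFB2 are added as examples of windows that hold SMAD or forkhead words, which windows of ID2, SMAD7 and LTBP1 hold as well. Each run is the 250 bases before the RefSeq transcription start in GRCh38.p14, written 5′ to 3′ on the gene's own strand. Capitals mark a match, on either strand, to 1 of 3 words: the SMAD1/SMAD5 GC element GGCGCC, the SMAD box CAGAC, or the forkhead word TGTTTAC or TATTTAC. The windows are ID1 at chr20:31605039-31605288 (plus strand), ID3 at chr1:23559502-23559751 (minus strand), LTBP2 at chr14:74612238-74612487 (minus strand) and TGFB2 at chr1:218345086-218345335 (plus strand).
ID1: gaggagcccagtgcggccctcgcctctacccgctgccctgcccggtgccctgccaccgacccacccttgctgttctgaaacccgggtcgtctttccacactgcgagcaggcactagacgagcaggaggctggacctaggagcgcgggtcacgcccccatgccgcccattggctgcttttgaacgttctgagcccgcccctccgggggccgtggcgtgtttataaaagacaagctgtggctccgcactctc
ID3: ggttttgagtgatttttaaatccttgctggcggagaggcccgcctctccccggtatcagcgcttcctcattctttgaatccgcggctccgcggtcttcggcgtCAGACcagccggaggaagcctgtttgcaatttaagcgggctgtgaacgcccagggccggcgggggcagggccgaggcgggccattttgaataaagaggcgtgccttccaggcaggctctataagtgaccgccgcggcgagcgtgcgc
LTBP2: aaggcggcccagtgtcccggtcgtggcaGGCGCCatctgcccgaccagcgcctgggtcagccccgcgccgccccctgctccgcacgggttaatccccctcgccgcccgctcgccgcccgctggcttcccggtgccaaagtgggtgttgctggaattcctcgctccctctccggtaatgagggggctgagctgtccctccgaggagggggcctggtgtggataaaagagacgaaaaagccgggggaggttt
TGFB2: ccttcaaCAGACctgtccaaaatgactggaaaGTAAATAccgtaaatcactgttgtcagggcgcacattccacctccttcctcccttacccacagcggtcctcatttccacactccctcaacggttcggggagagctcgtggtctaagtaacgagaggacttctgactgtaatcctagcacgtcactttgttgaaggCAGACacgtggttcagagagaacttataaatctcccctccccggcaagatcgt

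RefSeq gave 15 such windows for the 10 genes, because SMAD7, LTBP1 and LTBP3 have several starts. GGCGCC was found in 1 of the 15 windows, that of LTBP2, 222 bases before the start, and in 16.4% of all 35116 windows. CAGAC was found in 7 of the 15 windows, in ID3, SMAD7, TGFB2 and LTBP1, and in 38% of all windows. In ID3 it lies 147 bases before the start, and in TGFB2 it lies 243 and 53 bases before it. A forkhead word was found in 3 of the 15 windows, in ID2, SMAD7 and TGFB2, and in 5.27% of all windows. In TGFB2 the forkhead word lies 218 bases before the start, between the pair of SMAD boxes, and no matches in the printed runs overlap. The ID1 window holds none of the words, which says only that these letters are not in these 250 bases. No binding was measured in these samples, so a match is a description of sequence.

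The deposited values are read counts scaled by the authors for library depth, called normalized counts here. The files allowed 16510125 to 25732569 whole reads per library to be recovered. Differences were tested with limma on log2(normalized count + 1) for the 18460 genes averaging 10 or more normalized counts, and log2 fold changes are on that scale with their standard errors (SE). A gene was called where the Benjamini-Hochberg adjusted p over all tested genes was under 0.05. FOXA1 itself was at 1477, 1378 and 1459 normalized counts in the control libraries and at 247, 192 and 189 after FOXA1 siRNA, 14.5% of the control mean (log2 fold change -2.79 ± 0.09 SE). All 10 squamous epithelial markers were above the minimum, 4 of them called higher (such as SFN, 3877 to 8538 normalized counts) and 3 lower (such as TP63, 4917 to 3734). The marker KRT6A was at 802 normalized counts in control replicate 3 and at 50.4 and 38.3 in the other control libraries. The change across the transcriptome was broad: 9571 tested genes (51.8%) were called, 4954 (26.8%) higher and 4617 (25%) lower after FOXA1 siRNA. With every library scaled to the same total instead, 3594 were higher and 5967 lower, so the share of called genes that were higher moved from 51.8% to 37.6%.

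Of the 10 genes, 8 were tested: ID1, ID3 and SMAD7 were called higher, and SMAD6, TGFB1, LTBP1, LTBP2 and LTBP3 were called lower. ID2 and TGFB2 had too few reads for the test. The share called among all tested genes was 51.8%, so a call by itself sets no gene apart in this data set. The median log2 fold change of the 8 tested members was -0.35, beside 0.0039 over all tested genes. The 3 control and 3 FOXA1 siRNA libraries did not overlap for 7 of the 8 tested members, the exception being SMAD7, and for 57.6% of all tested genes. With 3 libraries against 3, an exact two-sided permutation test of a single gene cannot give a p below 0.1.

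**Figure D1:**
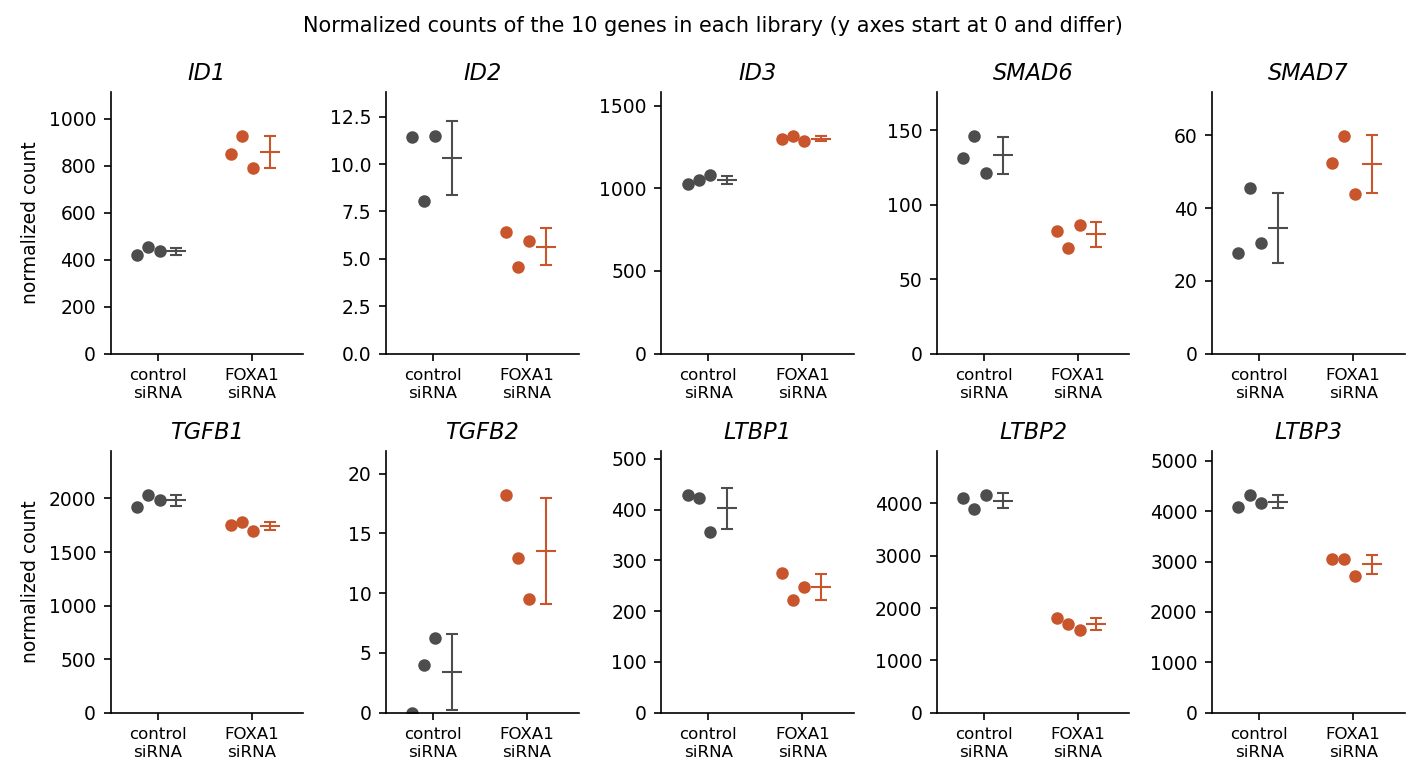
Normalized counts (y axis, starting at 0 and scaled separately for each gene) of the 10 genes in the 3 control siRNA libraries (grey) and the 3 FOXA1 siRNA libraries (orange); points are libraries and bars are the mean ± SD. The groups are apart in every panel except SMAD7, and ID2 and TGFB2 lie below 20 normalized counts.

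The ID genes changed unequally. ID1 (ENSG00000125968, chr20:31605283-31606515, plus strand, GRCh38) was at 419, 452 and 435 normalized counts in the control libraries and at 851, 929 and 792 after FOXA1 siRNA. Every FOXA1 siRNA library lay above every control library, and the mean rose from 436 ± 16.3 to 857 ± 68.5 (SD, n = 3), a 1.97-fold difference. On the log2 scale the rise was 0.97 ± 0.07 (SE; 95% interval 0.82 to 1.13; limma adjusted p = 1.21e-11), and 367 of the 18460 tested genes had a larger rise.

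ID3 (ENSG00000117318, chr1:23557918-23559794, minus strand) was at 1027, 1049 and 1078 normalized counts in the control libraries and at 1300, 1320 and 1285 after FOXA1 siRNA. The libraries were tight within each group and did not overlap. The mean rose from 1052 ± 25.8 to 1301 ± 17.6 (SD, n = 3), with a log2 fold change of 0.31 ± 0.06 (SE; limma adjusted p = 5.76e-05). A larger rise was seen for 4169 of the 18460 tested genes. The rise of ID1 exceeded that of ID3 in the same libraries: log2(ID1/ID3) went from -1.27 ± 0.05 to -0.60 ± 0.10 (SD, n = 3; exact two-sided permutation p = 0.1, the smallest possible).

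ID2 (ENSG00000115738, chr2:8678845-8684453, plus strand) was close to the detection limit, with 12, 8 and 11 reads in the control libraries and 6, 6 and 5 after FOXA1 siRNA. Scaled for depth these were 11.4, 8.07 and 11.5 against 6.43, 4.55 and 5.93 normalized counts. The groups did not overlap, with FOXA1 siRNA below control, the opposite side from ID1 and ID3. Over each group the reads summed to 31 and 17, a depth-corrected ratio of 0.532 with an exact 95% interval of 0.276 to 0.991 that covers counting error only. When all genes with any reads were tested, ID2 had a log2 fold change of -0.77 ± 0.49 (SE; limma adjusted p = 0.274), so a difference was not detectable by that test at this depth. ID2 shares 38 exonic bases with the antisense gene ID2-AS1, which averaged 4.35 and 0.61 normalized counts. Strand handling is not given in the sources used here, so reads on such shared bases cannot be told apart.

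The inhibitory SMADs, both feedback genes of the pathway, were called in opposite directions. SMAD6 (ENSG00000137834, chr15:66702228-66782848, plus strand), which acts mainly on the BMP branch, was at 131, 146 and 121 normalized counts in the control libraries and at 82.5, 70.6 and 86.6 after FOXA1 siRNA. All 3 FOXA1 siRNA libraries lay below all 3 control libraries. The mean fell from 133 ± 12.6 to 79.9 ± 8.32 (SD, n = 3), a log2 fold change of -0.73 ± 0.15 (SE; limma adjusted p = 1.59e-04).

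SMAD7 (ENSG00000101665, chr18:48919853-48952052, minus strand), which restrains both the TGF-beta and the BMP receptors, was at 27.6, 45.4 and 30.3 normalized counts in the control libraries and at 52.5, 60.0 and 43.9 after FOXA1 siRNA. The groups overlapped, since control replicate 2 lay above FOXA1 siRNA replicate 3. The mean rose from 34.4 ± 9.59 to 52.1 ± 8.04 (SD, n = 3), with a log2 fold change of 0.61 ± 0.23 (SE; 95% interval 0.13 to 1.09; limma adjusted p = 0.0318). The exact two-sided permutation test gave p = 0.2. This is the least firm call among the members: the limma adjusted p became 0.134 without control replicate 1, 0.0916 without control replicate 3, 0.0681 without FOXA1 siRNA replicate 1 and 0.133 without FOXA1 siRNA replicate 2, with log2 fold changes of 0.47, 0.53, 0.59 and 0.50. In the authors' deposited table SMAD7 had an adjusted p of 0.138.

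Within each library the balance of these inhibitors moved toward SMAD7. The log2(SMAD7/SMAD6) ratio was -2.21, -1.67 and -1.97 in the control libraries and -0.64, -0.23 and -0.96 after FOXA1 siRNA. The groups did not overlap, with means of -1.95 ± 0.27 and -0.61 ± 0.37 (SD, n = 3; exact two-sided permutation p = 0.1). Per kilobase of exon, SMAD7 made up 30.2% ± 4.12 of the pair in control libraries and 52.5% ± 6.41 after FOXA1 siRNA (SD, n = 3). By normalized counts without the length it made up 20.3% ± 3.17 and 39.5% ± 6.17 (SD, n = 3). Whether SMAD7 is the larger part after FOXA1 siRNA thus depends on the lengths used.

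**Figure D2:**
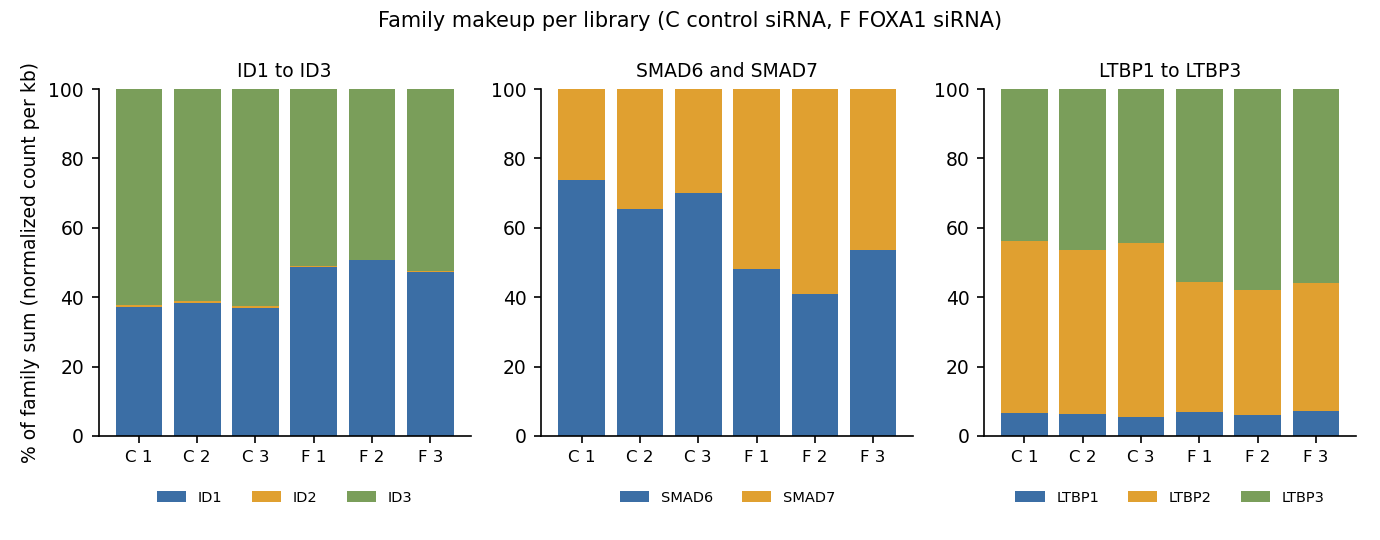
Share of each gene (y axis, percent of the family's summed normalized counts per kilobase of exon) in the 3 control siRNA libraries (C 1 to C 3) and the 3 FOXA1 siRNA libraries (F 1 to F 3), for the ID genes, the inhibitory SMADs and the LTBP genes. ID1, SMAD7 and LTBP3 take a larger share in every FOXA1 siRNA library than in any control library, and LTBP1 keeps 5.33% to 7.13% throughout.

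Of the ligands, TGFB1 (ENSG00000105329, chr19:41301587-41353911, minus strand) was the abundant one. It was at 1924, 2034 and 1985 normalized counts in the control libraries and at 1748, 1777 and 1701 after FOXA1 siRNA. The groups did not overlap but lay close together, and the mean fell from 1981 ± 55.0 to 1742 ± 38.6 (SD, n = 3), to 87.9% of control. On the log2 scale the change was -0.19 ± 0.05 (SE; limma adjusted p = 0.00412), the smallest of the 8 tested members in size. It was -0.28 (limma adjusted p = 6.76e-05) with equal library totals. With the authors' scaling 6207 tested genes had a larger fall. TGFB1 shares 215 exonic bases with HNRNPUL1 on the opposite strand, which averaged 6025 ± 130 and 5919 ± 72.0 normalized counts (SD, n = 3).

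TGFB2 (ENSG00000092969, chr1:218346235-218444619, plus strand), a second ligand isoform, was nearly silent. Its reads were 0, 4 and 6 in the control libraries and 17, 17 and 8 after FOXA1 siRNA, or 0, 4.04 and 6.28 against 18.2, 12.9 and 9.49 normalized counts. Every FOXA1 siRNA library held more than any control library. The reads summed to 10 and 42, a depth-corrected ratio of 4.07 with an exact 95% interval of 2.01 to 9.10 for counting error only. When all genes with any reads were tested, TGFB2 had a log2 fold change of 2.09 ± 0.54 (SE; limma adjusted p = 5.83e-04). In that fit, also used for ID2 above, the SE came from spread pooled over genes, not from the gene's own libraries. Its p-values can therefore be far too small: the limma adjusted p of LTBP2 was 1.51e-116 there. The authors' deposited table gives 2.00 ± 0.82 (SE) for TGFB2 with an adjusted p of 0.0406, and the exact two-sided permutation test gave p = 0.1. TGFB2 shares 1371 exonic bases on its own strand with TGFB2-OT1, at 0, 1.01 and 0 normalized counts in control libraries and 3.22, 5.31 and 3.56 after FOXA1 siRNA, so reads of these genes cannot be told apart there. Even so, TGFB2 remained a small part of the TGFB1 and TGFB2 sum per kilobase of exon, 0.108% ± 0.10 in control libraries and 0.485% ± 0.153 after FOXA1 siRNA (SD, n = 3).

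All 3 LTBP genes fell, LTBP2 the most. LTBP2 (ENSG00000119681, chr14:74498170-74612378, minus strand) was at 4100, 3889 and 4161 normalized counts in the control libraries and at 1812, 1689 and 1588 after FOXA1 siRNA. The groups were far apart, with means of 4050 ± 143 and 1696 ± 112 (SD, n = 3), so that 41.9% of the control level was measured. On the log2 scale the change was -1.26 ± 0.05 (SE; 95% interval -1.37 to -1.15; limma adjusted p = 6.78e-17), and 601 tested genes had a larger fall. LTBP2 shares 207 exonic bases with AC013451.1 on the opposite strand, which averaged 206.8 ± 4.79 and 89.1 ± 14.9 normalized counts (SD, n = 3).

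LTBP3 (ENSG00000168056, chr11:65538805-65558930, minus strand), which helps TGF-beta to be secreted and stored in the matrix, was at 4073, 4323 and 4171 normalized counts in the control libraries and at 3056, 3056 and 2716 after FOXA1 siRNA. No library of the groups overlapped. The mean fell from 4189 ± 126 to 2943 ± 196 (SD, n = 3), a log2 fold change of -0.51 ± 0.05 (SE; limma adjusted p = 3.37e-09). LTBP1 (ENSG00000049323, chr2:32946972-33399509, plus strand), the binding protein that carries latent TGF-beta to fibronectin and fibrillin fibres, was at 429, 423 and 356 normalized counts in the control libraries and at 274, 222 and 247 after FOXA1 siRNA. The control libraries varied more than those of LTBP3 relative to their mean, yet all lay above the FOXA1 siRNA libraries. The mean of LTBP1 fell from 402 ± 40.6 to 248 ± 26.4 (SD, n = 3), a log2 fold change of -0.70 ± 0.10 (SE; limma adjusted p = 9.55e-07). LTBP1 shares 249 exonic bases with the antisense gene AC019127.1, at 37.9 and 28.1 normalized counts on average.

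In control libraries LTBP2 and LTBP3 were at nearly the same normalized count, with log2(LTBP2/LTBP3) of 0.01, -0.15 and -0.0033. After FOXA1 siRNA the ratio was -0.75, -0.85 and -0.77, below every control library (means -0.05 ± 0.09 and -0.79 ± 0.05, SD, n = 3; exact two-sided permutation p = 0.1). Per kilobase of exon, LTBP2 took 49.1% ± 1.61 of the family in control libraries and 36.9% ± 0.572 after FOXA1 siRNA, while LTBP3 took 44.8% ± 1.38 and 56.5% ± 1.23 (SD, n = 3). The share of LTBP1 was 6.05% ± 0.633 and 6.68% ± 0.683 and overlapped between groups (exact two-sided permutation p = 0.3). Together the 3 genes summed to 8641 ± 43.2 normalized counts in control libraries and 4887 ± 304 after FOXA1 siRNA (SD, n = 3).

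The markers of other cell types that could be tested, COL1A1 and CDH5, fell alongside the LTBP genes. The summed level of 10 fibroblast markers was 148 to 167 normalized counts in control libraries and 92.5 to 145 after FOXA1 siRNA. Nearly all of it was COL1A1, and DCN, LUM, PDGFRA and POSTN had no reads in any library. The sum of 8 endothelial and blood markers was 551 to 582 and 282 to 308 normalized counts, nearly all of it CDH5, and HBB had no reads in any library. COL1A2 had 1 read, in FOXA1 siRNA replicate 1, and PECAM1 had 2, in control replicate 2. Every sample was the single line OSC19SSZR, so these sums describe RNA of a cultured carcinoma line. Any link of these markers to the LTBP values was not tested. In bulk RNA a change in some cells and a change in all cells cannot be told apart.

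**Figure D3:**
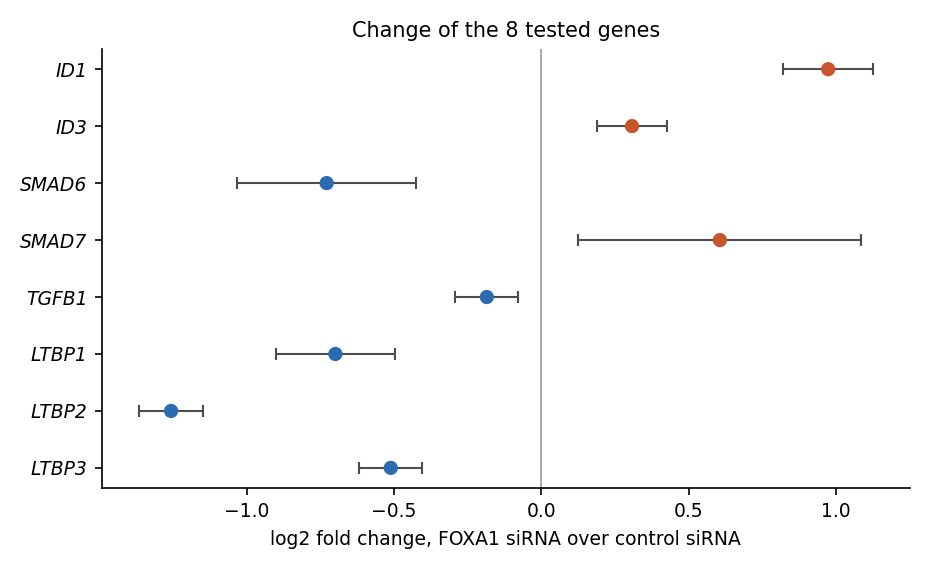
Log2 fold change after FOXA1 siRNA over control siRNA (x axis) for the 8 tested genes, from limma; points are estimates (orange higher, blue lower) and bars the 95% interval. ID1 and LTBP2 lie farthest from 0, at 0.97 and -1.26, and SMAD7 has the widest interval, from 0.13 to 1.09.

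Levels of different genes can be set side by side only per length of exon. The length used here is that of all annotated exons of a gene merged, which can exceed the length of the transcripts expressed. The order below is therefore approximate. In control libraries the order, in normalized counts per kilobase, was TGFB1 (612 ± 17.0), ID3 (585 ± 14.3), LTBP2 (446 ± 15.7), LTBP3 (407 ± 12.2), ID1 (353 ± 13.2), LTBP1 (54.9 ± 5.54), SMAD6 (15.5 ± 1.47), SMAD7 (6.84 ± 1.91), ID2 (4.68 ± 0.888) and TGFB2 (0.667 ± 0.617; SD, n = 3 for each). The neighbours TGFB1 and ID3, and SMAD7 and ID2, lay within their combined SDs of each other. After FOXA1 siRNA ID3 (724 ± 9.80) and ID1 (695 ± 55.6) led, followed by TGFB1 (538 ± 11.9), LTBP3 (286 ± 19.1), LTBP2 (187 ± 12.3) and LTBP1 (33.8 ± 3.61). SMAD7 (10.4 ± 1.60), SMAD6 (9.33 ± 0.972), TGFB2 (2.63 ± 0.855) and ID2 (2.56 ± 0.441) followed. In that order ID3 and ID1, SMAD7 and SMAD6, and TGFB2 and ID2 lay within their combined SDs.

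The authors' deposited table of their own comparison gave an adjusted p under 0.05 for 8 of the 10 members, beside 37% of the 21657 genes with an adjusted p there. The members above that threshold in the authors' deposited table were ID2 (0.365) and SMAD7 (0.138). Its log2 fold changes had the same sign as those given here for all 10, for example 0.98 for ID1 and -1.25 for LTBP2 in the authors' deposited table.

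The tested genes whose profile over the 6 libraries lay nearest to a member were found by the Euclidean distance of log2(normalized count + 1) centred on each gene's mean, among 12065 genes averaging 50 normalized counts or more. Nearest to ID1 were C11orf24 (distance 0.107), TEDC2 (0.124) and CENPL (0.125). Nearest to LTBP2 were VAPA (0.0866), CCDC32 (0.107) and SLC52A3 (0.109).

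The remaining genes of both pathways were read from 10 lists, which hold 156 genes of the table, 113 of them tested. Of these 29 were called higher and 45 lower, 65.5% called, with a median log2 fold change of -0.10, beside 51.8% and 0.0039 over all tested genes. Over all tested genes 26.8% were called higher and 25% lower. In the list of BMP ligands, which by its name also holds the procollagen protease BMP1, none of 8 tested genes was called higher and 4 were lower (BMP1, BMP5, BMP7 and BMP8A; median -0.30). That count of 4 was 2 with quantile normalization, with a mean of at least 50 or at a threshold of 0.01, and 1 gene of the list was called higher without control replicate 3. Of 10 tested BMP and activin receptors and coreceptors, none was called higher and 6 were lower (median -0.43). The type I receptor BMPR1B fell from 295 ± 6.69 to 121 ± 8.90 normalized counts (SD, n = 3; log2 fold change -1.28 ± 0.11 SE), and the BMP coreceptor RGMB from 371 ± 16.5 to 159 ± 19.3 (-1.23 ± 0.10). BMP8A and BMP1 had log2 fold changes of -0.31 ± 0.12 and -0.29 ± 0.07 (SE). BMP6, the most abundant ligand not called, averaged 308 and 351 normalized counts and was above control in every FOXA1 siRNA library (limma adjusted p = 0.0717). BMPR1A, not called, averaged 425 and 399.

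In the list of BMP antagonists, which also holds modulators such as KCP, 2 of 8 tested genes were called higher and 2 lower. The first count was 1 under 15 of 19 alternatives and the second ran from 1 to 4. KCP, a chordin-like modulator, had a log2 fold change of 0.29 ± 0.08 and NBL1 of 0.13 ± 0.06 (limma adjusted p = 0.0495), while BMPER had -0.49 ± 0.17 and CRIM1 -0.19 ± 0.05 (SE for each). TWSG1, a BMP-binding protein, was not called, at 817 and 739 normalized counts. Among BMP target genes outside the members, 1 of 7 tested was higher and 4 were lower (median -0.52). That lower count ran from 1 to 5 over 19 alternatives; it was 2 in DESeq2, 2 without control replicate 2 and without either FOXA1 siRNA replicate 1 or 3, and 1 without control replicate 3. The transcription factor GATA2 rose from 201.0 ± 13.9 to 291 ± 25.5 normalized counts, and GATA3 fell from 1982 ± 57.4 to 1322 ± 49.5 (SD, n = 3). MSX1 was lower (-0.52 ± 0.22 SE, limma adjusted p = 0.0465), and MSX2 was not called, at 375 and 339 normalized counts. Of the ID partners, the E protein TCF3 rose (0.38 ± 0.06 SE), TCF12 fell (-0.21 ± 0.07 SE), and the repressor HES1 was not called, at 671 and 608 normalized counts.

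Inside the cell, 6 of 21 tested SMADs and SMAD regulators were higher and 7 lower (median -0.06). SMAD1, a BMP signal carrier, rose from 297 ± 28.4 to 475 ± 22.4 normalized counts (SD, n = 3), a log2 fold change of 0.68 ± 0.09 (SE). SMAD5, which also carries BMP signals, was not called, at 916 and 987 normalized counts (limma adjusted p = 0.143). SMAD3, which carries TGF-beta signals, fell from 1722 ± 73.9 to 1185 ± 77.5 (SD, n = 3), a log2 fold change of -0.54 ± 0.06 (SE). The ubiquitin ligase SMURF2, which SMAD7 recruits to the receptor, rose (0.52 ± 0.05 SE), and LEMD3, an inner nuclear membrane protein that binds SMADs, fell (-0.63 ± 0.08 SE). The corepressor TGIF1 was not called, at 1442 and 1386 normalized counts. Of the TGF-beta receptors and the third ligand, 1 of 7 was higher and 2 were lower (median -0.08). TGFB3 fell from 82.1 ± 19.1 to 47.6 ± 10.5 normalized counts (SD, n = 3) and the coreceptor TGFBR3 from 335 ± 25.6 to 239 ± 28.1, while the receptor-associated protein TGFBRAP1 rose (0.41 ± 0.07 SE). The signalling receptor TGFBR2 was not called, at 3474 and 3741.

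The genes that store and release latent TGF-beta moved in both directions, 5 of 18 tested higher and 8 lower (median -0.15). LTBP4, the remaining LTBP, fell like the others, from 701 ± 28.9 to 309 ± 14.9 normalized counts (SD, n = 3; log2 fold change -1.18 ± 0.08 SE). ITGB8, the integrin chain that pairs with ITGAV to activate latent TGF-beta, fell from 444 ± 18.4 to 168 ± 20.2 (-1.40 ± 0.10 SE). ITGB1 rose from 6078 ± 112 to 12076 ± 592, and the crosslinking enzyme TGM2 from 60.4 ± 3.63 to 198 ± 10.0 (SD, n = 3). FURIN, the protease that cleaves the propeptide, was not called, at 1301 and 1341 normalized counts.

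Of 24 tested TGF-beta target genes, 12 were higher and 7 lower (median 0.14). The basement membrane collagen COL4A1 rose from 1202 ± 69.9 to 2317 ± 71.8 normalized counts and the growth factor binding protein IGFBP3 from 6344 ± 243 to 11875 ± 933 (SD, n = 3). PMEPA1, a feedback inhibitor of TGF-beta signalling, fell from 685 ± 24.8 to 311 ± 25.8, and the protease MMP10 from 216 ± 24.9 to 120 ± 22.6. Of the other superfamily ligands, 1 of 8 tested was higher and 4 were lower (median -0.15). The stress-linked ligand GDF15 fell from 673 ± 57.0 to 337 ± 8.43 normalized counts and GDF11 from 324 ± 28.0 to 218 ± 12.0, INHBE rose from 50.6 ± 17.1 to 90.7 ± 9.64, and GDF9 was not called, at 1028 and 1161. No test of a list as a whole was made.

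**Figure D4:**
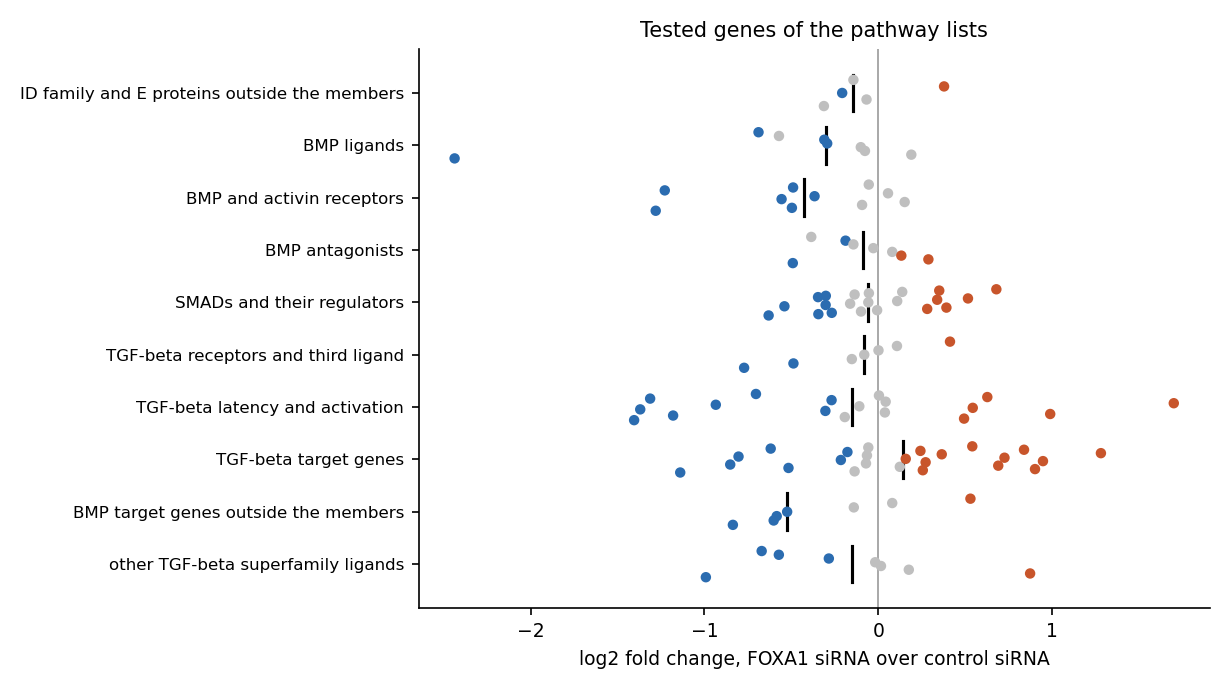
Log2 fold change after FOXA1 siRNA over control siRNA (x axis, limma) of the tested genes in each of the 10 pathway lists; points are genes (orange called higher, blue called lower, grey not called) and black bars the list median. No tested BMP ligand or receptor is called higher, while 12 of the 24 tested TGF-beta target genes are. Over all tested genes 26.8% are called higher and 25% lower. Without control replicate 3, 1 BMP ligand is called higher.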

How the data were processed

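Gene expression was measured by RNA-seq in 6 samples, 3 per group. The submitters' processing notes list HISAT2, DESeq2, GRCh38 and GRCm38, with neither version nor role. How reads were counted is not given in the sources used here. The deposited table of 61862 lines holds a depth-scaled signal (normalized count) per gene and library, and per the file headers also the authors' log2 fold changes, their standard errors, a test score and each p-value. Of these, 3 malformed lines were left out, 27396 of 61859 genes had no reads, and 61756 gene IDs matched the name table. Every normalized count was a whole multiple (100% within 0.01 read) of what 1 read is worth, so whole read counts were recovered from the authors' values. Size factors were 0.843 to 1.32. Counts of replicates were compared by chi-square, which was 2.51 to 5.14 per gene, above sampling noise.

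Differences were tested with limma 3.58.1 in R 4.3.3 (trend and robust options, no covariate) on log2(normalized count + 1) for genes with a mean of at least 10, with Benjamini-Hochberg adjustment at 0.05. Ratios and single genes were tested with exact permutation tests (numpy 2.4.6). The exact intervals of the ID2 and TGFB2 read ratios were binomial (scipy 1.17.1). edgeR 4.0.16, DESeq2 1.42.0 and limma-voom on the recovered reads, other pseudocounts, filters and scalings, a replicate block and leaving out each library were alternatives. Coordinates, exon lengths and overlaps are from GENCODE 29 (GRCh38), and promoters from RefSeq (GRCh38.p14, 10 of 10 members matched). The members and the pathway lists were chosen with earlier results of these data known, so no list gives independent support. All members were named, and from each list up to 2 genes called higher and 2 called lower with the largest change among those averaging 50 or more, and the most abundant gene not called.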

Additional observations from a re-analysis of the deposited data

How the results depend on the processing

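Across 19 alternatives, 2 to 4 members were called higher and 5 lower, and 7498 to 9658 genes were called in all. ID1, ID3, SMAD6, TGFB1, LTBP1, LTBP2, LTBP3 and FOXA1 kept their direction and their call wherever they were tested, the highest adjusted p among them being 0.0355 (TGFB1). SMAD7 kept its direction, but its log2 fold change was no longer called with equal library totals (0.51, adjusted p = 0.073), in limma without trend and robust options (0.61, 0.0639) and in DESeq2 (0.60, 0.0918). Leaving out 1 library at a time gave 0.47 to 0.82 for SMAD7, and SMAD7 was not tested with a mean of at least 50. The log2 difference of ID2 was -0.52 with a pseudocount of 5. That of TGFB2, which had 0 reads in control replicate 1, ran from 1.19 to 2.65 over 9 alternatives. Per kilobase, the share of ID2 changed by -0.317 percentage points, that of TGFB1 by -0.377 and that of TGFB2 by 0.377. Summing rows of a repeated symbol was not run, since no member symbol repeats.

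The list counts moved more. BMP antagonists were 2 higher, but 1 under 15 alternatives, when NBL1 was not called, and 2 lower, ranging from 1 to 4 (4 without a filter and with equal totals; 1 without trend and robust options and at a threshold of 0.01). Lower BMP targets outside the members were 4, ranging from 1 to 5 (2 without a filter, at a mean of at least 50, with quantile normalization, DESeq2 and voom, and at 0.01; 1 without trend and robust options). Lower BMP ligands were 4, and 2 at a mean of at least 50, with quantile normalization and at 0.01; without control replicate 3, 1 ligand was higher. Equal totals gave 4 lower TGF-beta receptors in place of 2 and 2 lower genes among the ID partners in place of 1, which became 0 without control replicate 1. Other ligands higher were 2 in place of 1 under 6 alternatives. With the replicate number as a block, 3 members were higher, 5 lower and 9332 genes were called; with the replicate block, the count of BMP antagonists higher became 1, and no other list count moved by more than 1.5 times. Deviations of same-numbered libraries from their group means correlated at -0.0102, 0.0109 and -0.0109, so no shared effect of the replicate number was seen. Whether same-numbered samples were handled together cannot be told from these values. Depth limits ID2 and TGFB2, with 31 and 10 reads over the control libraries.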

Other observations

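Several pathway genes with few reads had large differences and were picked out after their values were seen. The BMP ligand gene BMP5 was at 43.7, 34.3 and 48.1 normalized counts in the control libraries and at 7.503, 6.07 and 7.12 after FOXA1 siRNA, with no overlap (log2 fold change -2.44 ± 0.33 SE, limma adjusted p = 4.67e-07). FBN1, which encodes fibrillin-1, the microfibril protein that LTBPs attach to, averaged 20.6 ± 2.72 and 7.47 ± 1.94 normalized counts (SD, n = 3; log2 fold change -1.37 ± 0.39 SE). EMILIN1, an elastic fibre protein that limits processing of the TGF-beta precursor, averaged 28.5 ± 5.28 and 10.95 ± 2.83 (log2 fold change -1.31 ± 0.34 SE). The secreted antagonist gene SOST had 12.4, 11.1 and 9.41 normalized counts in control libraries and 2.14, 0 and 0 after FOXA1 siRNA, below the mean of 10 needed for the test. Antagonist genes below that mean did not all fall. SOSTDC1 averaged 10.9 and 2.15 normalized counts, but NOG rose from 2.32 to 7.87, with no overlap for either. The protease ADAM19, a TGF-beta target, also rose, from 26.5 ± 6.95 to 65.6 ± 14.5 (SD, n = 3; log2 fold change 1.28 ± 0.24 SE).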
